A study of Mus musculus with 24 samples.

Results

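The nuclear genes for the subunits and assembly factors of mitochondrial oxidative phosphorylation were measured in uninjured carotid arteries of mice. The members were picked by a rule on gene names, and earlier results of these data were known when they were chosen. They are the rows of the gene tables whose Ensembl identifier belongs to a protein-coding gene in GENCODE M21 with a symbol that starts with Nduf, Uqcr or Atp5, with Sdh followed by a to d, or with Cox followed by 4 to 8 and a letter. These were 94 of the 55421 genes in each table. Complex I had 44 members, complex II 4, complex III 8, complex IV 20 and complex V 18. The 24 libraries came from C57BL/6 mice labelled as 9 weeks old, with 6 libraries in each of 4 groups. The control libraries, titled OVX, came from ovariectomized mice that received placebo pellets without hormone. The E2 libraries came from mice given estradiol, the E4 libraries from mice given estetrol, and the TAM libraries from mice given tamoxifen, a selective estrogen receptor modulator. The study's methods describe ovariectomy followed by subcutaneous hormone pellets for the E2 and E4 mice. For the TAM mice, surgery and the route of tamoxifen are not given in the sources used here. The deposited design gives a treatment of 3 weeks, whereas the study's methods give a shorter one. The treatment field of the E4 libraries reads Placebo, as for the OVX libraries, so the E4 libraries were grouped by their titles, and every E4 result below rests on those titles. Each library was numbered as a separate animal, C2 to C39, and whether any of them pooled arteries is not given in the sources used here.

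Oxidative phosphorylation is the set of reactions by which mitochondria turn the oxidation of NADH and succinate into ATP. Complex I takes electrons from NADH and complex II takes them from succinate. Both pass them to coenzyme Q, complex III passes them on to cytochrome c, and complex IV gives them to oxygen. Complexes I, III and IV pump protons as they work, and complex V, the ATP synthase, lets the protons back and makes ATP. Apart from a small set made inside the organelle, the subunits are encoded by nuclear genes. Core subunits carry the redox centers or the catalytic sites, accessory subunits surround them, and assembly factors help build a complex without staying in it. Several complex IV subunits have a broadly expressed form and a second form that is typical of skeletal muscle, heart and brown fat. The carotid wall holds smooth muscle cells, endothelial cells and fibroblasts, and the fat around it can be dissected with it.

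Total counts ran from 24647246 to 64221401 a library, and the members together took 0.887% to 1.62% of them. Of the 94 members, 92 passed the filter on low counts. The other two were Cox7b2, with at most 2 counts in a library, and Cox8c, with 0 counts in every library. These are complex IV isoforms known from testis. The 13 mitochondrially encoded subunits were listed at 0 and were not analyzed. Smooth muscle markers summed to between 2359 and 8424 CPM (counts scaled to the library total) and endothelial markers to between 524 and 1187 CPM, so both labelled cell types were present in every library. Some libraries stood apart. OVX C5 was the highest of all 24 libraries for 59 of the 92 members and OVX C3 for 15 more. Markers of sympathetic neurons summed to 35 CPM in OVX C5 and 153 CPM in TAM C35, against 1408 to 5083 CPM in the other 22 libraries. Skeletal muscle markers summed to over 150 CPM in 6 libraries (OVX C2, E2 C6, E2 C9, E2 C29, TAM C35 and E4 C20). Thyroid and parathyroid markers summed to 2977 CPM in E4 C38. The counts, medians and largest E4 changes that rest on OVX C3 and OVX C5 are given below with and without them.

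The windows just upstream of 7 members that the results turn on are shown first, chosen with their values known: the 2 complex IV isoform pairs in which the tissue-specific form fell most (Cox8b with Cox8a, Cox7a1 with Cox7a2), the member that was higher with E4 (Atp5g3), the complex I assembly factor that was lower with both E4 and tamoxifen (Ndufaf4) and a complex III subunit that was lower with E4 (Uqcrh). Each is the 250 bases before the RefSeq start, 5′ to 3′ on the strand of the gene, in GRCm38.p6 coordinates. Capitals mark a match to a motif searched.
Cox8b (chr7:140900447-140900696, minus strand): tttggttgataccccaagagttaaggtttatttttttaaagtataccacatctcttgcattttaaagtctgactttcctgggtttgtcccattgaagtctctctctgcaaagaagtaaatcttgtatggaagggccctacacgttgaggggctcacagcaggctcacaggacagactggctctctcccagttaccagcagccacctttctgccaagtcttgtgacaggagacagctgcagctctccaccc
Cox8a (chr19:7217617-7217866, minus strand): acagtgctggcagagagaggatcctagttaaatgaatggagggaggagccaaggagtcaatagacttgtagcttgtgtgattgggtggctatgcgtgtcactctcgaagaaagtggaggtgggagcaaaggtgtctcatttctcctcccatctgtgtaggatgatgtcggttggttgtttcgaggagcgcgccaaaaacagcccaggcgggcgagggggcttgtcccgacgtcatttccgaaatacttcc
Cox7a1 (chr7:30183921-30184170, plus strand): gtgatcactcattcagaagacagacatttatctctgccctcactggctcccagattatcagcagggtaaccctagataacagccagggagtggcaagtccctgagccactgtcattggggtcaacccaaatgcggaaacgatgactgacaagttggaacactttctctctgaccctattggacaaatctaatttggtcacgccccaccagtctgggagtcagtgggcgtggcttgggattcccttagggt
Cox7a2 (chr9:79759854-79760103, minus strand): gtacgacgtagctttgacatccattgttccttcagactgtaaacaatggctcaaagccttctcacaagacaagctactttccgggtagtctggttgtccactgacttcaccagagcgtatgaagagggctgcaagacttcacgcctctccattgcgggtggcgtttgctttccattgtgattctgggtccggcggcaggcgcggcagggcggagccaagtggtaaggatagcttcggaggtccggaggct
Atp5g3 (chr2:73911327-73911576, minus strand): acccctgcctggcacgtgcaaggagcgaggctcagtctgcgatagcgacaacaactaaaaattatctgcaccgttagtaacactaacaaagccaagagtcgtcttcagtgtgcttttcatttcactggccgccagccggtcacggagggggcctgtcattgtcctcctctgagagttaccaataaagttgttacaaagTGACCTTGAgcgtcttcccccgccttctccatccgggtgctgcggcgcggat
Ndufaf4 (chr4:24897833-24898082, plus strand): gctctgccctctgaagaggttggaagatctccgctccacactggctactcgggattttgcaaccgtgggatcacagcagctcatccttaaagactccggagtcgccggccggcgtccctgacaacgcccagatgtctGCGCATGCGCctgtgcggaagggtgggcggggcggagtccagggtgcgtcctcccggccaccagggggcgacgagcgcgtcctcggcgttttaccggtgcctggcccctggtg
Uqcrh (chr4:116075071-116075320, minus strand): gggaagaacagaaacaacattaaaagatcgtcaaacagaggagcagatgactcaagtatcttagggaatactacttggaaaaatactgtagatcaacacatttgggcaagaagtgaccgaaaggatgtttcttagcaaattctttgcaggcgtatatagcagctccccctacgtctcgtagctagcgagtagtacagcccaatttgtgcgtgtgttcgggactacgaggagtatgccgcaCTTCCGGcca
The motifs were searched as exact letters on both strands in the 75 members for which the RefSeq promoter table held a window. They were also searched in the first listed window of each of 27025 genes of that table, called all windows here. A member took the window nearest its GENCODE start instead, and the 2 Atp5o identifiers share the same window. The ETS site CCGGAAG, which GABP can bind, was found in 13 of the 75 members, 17.3%, and in 7.05% of all windows. The NRF1 site, which is GCGCA followed by its reverse complement TGCGC, was found in 5 members (Atp5g2, Atp5k, Cox6a1, Ndufa11 and Ndufaf4), 6.67%, and in 0.781% of all windows. NRF1 and GABP are known activators of respiratory chain genes. The estrogen-related receptor element TCAAGGTCA was in the window of Atp5g3 only, 1.33% of members and 0.366% of all windows. The palindromic estrogen response element, which is GGTCA, any 3 bases and TGACC, was in none of the 75 and in 0.0629% of all windows, and the YY1 site AAGATGGC was in none and in 1.59%. Of the 23 members that were lower with E4, 21 had a window, and 5 of them held the ETS site (Atp5e, Atp5h, Atp5l, Sdhd and Uqcrh), against 8 of the 54 other windows. A match is a description of letters and not of binding. The members without a window included Atp5a1, Atp5f1, Atp5mpl, Atp5s, Cox4i1, Cox4i2, Cox6a2, Cox6c, Cox8c, Ndufa2, Ndufa4l2, Ndufaf6, Ndufb9, Ndufs1, Sdhc, Uqcrb, Uqcrc2 and Uqcrq.

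Levels within a complex differed widely. Compared on a scale that divides CPM by exonic length in kilobases (RPKM), the highest member of complex I was Ndufa1, an accessory subunit of the membrane arm, with a mean of 289 RPKM over the 24 libraries. Sdhd, a membrane anchor of complex II, was highest there at 241 RPKM. Uqcr10, a small accessory subunit, was highest in complex III at 215 RPKM. Cox8b, the muscle and brown fat form of the smallest complex IV subunit, was highest in complex IV at 533 RPKM. Atp5a1, the alpha subunit of the catalytic head, was highest in complex V at 389 RPKM. Per-length levels of short, many-exon genes are uncertain here, because Bowtie2 does not split a read over an intron. The length also counts every annotated exon of a gene, 3135 bases for Atp5a1 and 4237 for Atp5b. The ranks within a complex and the isoform shares below depend on these lengths. In the plot of all members by library, the medians of OVX C5, OVX C3 and E2 C9 were the highest. OVX C5 and E2 C9 were high in each of the 5 complexes, and OVX C3 was high in all but complex II, where E2 C29 and TAM C35 lay above it.

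**Figure D1:**
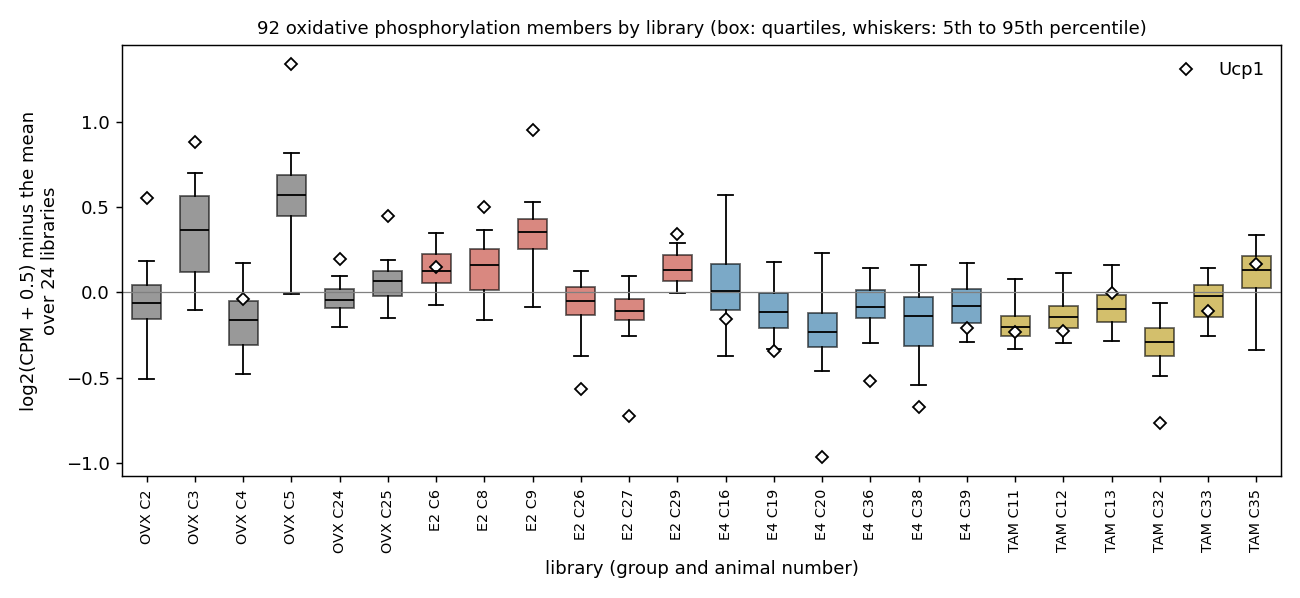
Distribution over the 92 tested members of the log2 level, log2(CPM + 0.5), as its difference from the member's mean over the 24 libraries (vertical axis), in each library (horizontal axis, colored by group), with boxes at the quartiles, a line at the median and whiskers at the 5th and 95th percentiles. Diamonds are the same measure for Ucp1, a brown fat marker. The members' median was highest in OVX C5, at 0.57, and lowest in TAM C32, at -0.29.

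Estradiol did not change a member past the threshold. Against OVX, 0 of 92 members passed an adjusted p of 0.05 in edgeR's quasi-likelihood test, where 4.16% of the 25033 tested genes passed in either direction. At an unadjusted p under 0.05 there were 3 members (3.26%, against 16% of all genes), and DESeq2 called 1 member lower. The median log2 fold change of the members was -0.03, with 62 of 92 below 0 (67.4%, against 48.7% of all genes). That sign turned without any of 3 libraries, with a median of 0.02 without OVX C3, 0.06 without OVX C5 and 0.0056 without E2 C27, and 0 members called in each (3.19%, 4.81% and 3.25% of all genes called). Without the 6 libraries with skeletal muscle transcripts the median was -0.17, with 0 members called (1.94% of all genes). The median was 0.18 with 2 members higher without both OVX C3 and OVX C5, where 3.92% of all genes were called in either direction. It was 0.14 with 6 members higher with Ucp1, a brown fat marker described below, as a covariate, where 5.66% of all genes were called. The member farthest below 0 was Cox4i2, the lung and hypoxia form of the complex IV subunit Cox4, at -0.56 (SE 0.17, adjusted p = 0.0652). Its CPM was 2.19, 2.40 and 3.23 (lowest, median and highest) in OVX and 1.29, 1.87 and 2.25 in E2, and the groups overlapped. Abundant members of complexes II to IV lay near 0, with Cox4i1 at -0.01 (SE 0.12), Sdhd at -0.06 (SE 0.14) and Uqcr10 at -0.05 (SE 0.15) on the log2 scale. Cox6a2, the muscle form of a complex IV subunit, had the largest estimate at 1.15, with an SE of 0.99 and an adjusted p of 0.669, and its levels were at most 1.31 CPM.

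Estetrol gave more members past the threshold than the other treatments. Against OVX, 23 of 92 members were lower (25%, against 12.5% of all genes tested) and 1 was higher (1.09%, against 9.52%). The members' median log2 fold change was -0.24, against -0.01 for all genes, and 77 of 92 were below 0 (83.7%, against 51.6%). The changes were small, since no member passed an adjusted p of 0.05 together with an absolute log2 fold change over 1, as 2.51% of all genes did. In 7 members the 6 E4 libraries all lay below the 6 OVX libraries (7.61%, against 4.07%). These were Ndufa2, Ndufa5, Ndufb11, Ndufaf2, Cox7a2, Atp5e and Atp5mpl. Since the tissue was sequenced in bulk, fewer cells of a type and less RNA per cell cannot be told apart. The medians of the 5 complexes lay close together, at -0.26 for complex I, -0.25 for complex II, -0.24 for complex III, -0.23 for complex IV and -0.21 for complex V.

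**Figure D2:**
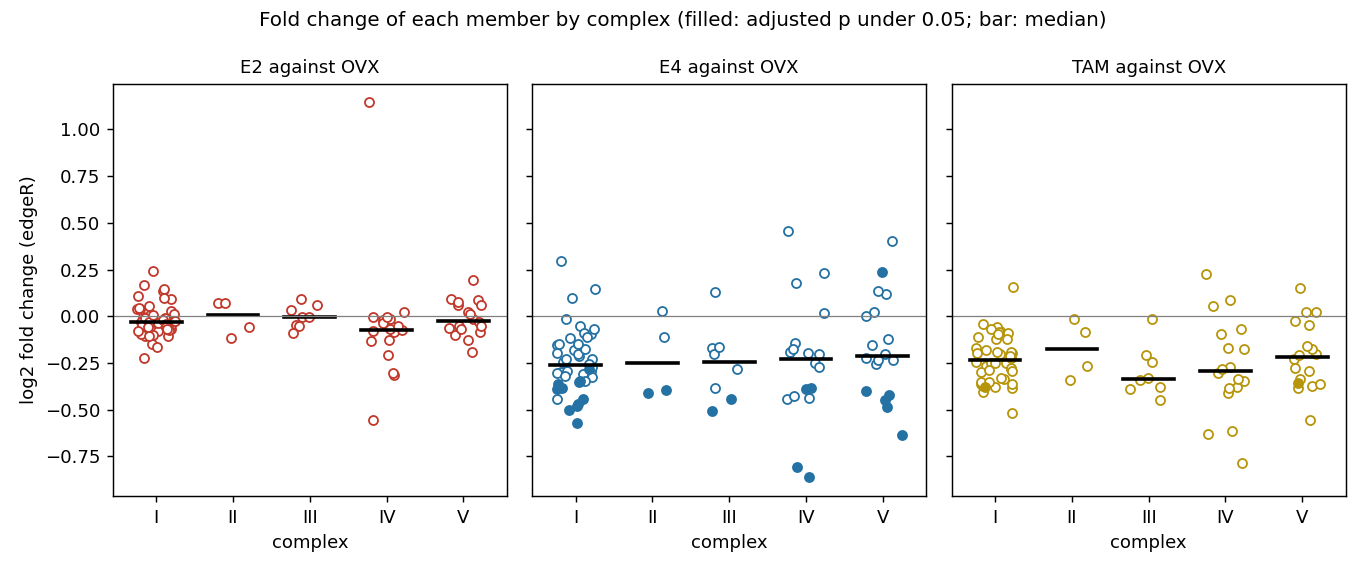
Log2 fold change against OVX of each of the 92 tested members with E2, E4 and TAM (panels), by complex, with filled points for members past an adjusted p of 0.05, open points for the rest and a bar at each complex's median. With E4 the medians of the 5 complexes lay between -0.26 and -0.21, and with E2 between -0.07 and 0.0051.

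In complex I, 10 of 44 members were lower with E4, 8 of the 29 accessory subunits, 2 of the 8 assembly factors and 0 of the 7 core subunits. Ndufb4, an accessory subunit of the membrane arm, had 14.0, 16.2 and 28.2 CPM (lowest, median, highest) in OVX and 11.7, 13 and 14.8 CPM in E4. Its log2 fold change was -0.57 (SE 0.17, adjusted p = 0.0177), and the groups overlapped at the edge. Ndufb11, another membrane arm subunit, had 71.6, 85.4 and 137 CPM in OVX and 64.9, 67.6 and 71.0 CPM in E4. It fell by 0.50 on the log2 scale (SE 0.13, adjusted p = 0.0118) with no overlap between the groups, but its exons overlap those of Rbm10 on the other strand, and its counts were not whole in 14 libraries. Ndufa2, an accessory subunit of the peripheral arm, fell by 0.47 (SE 0.11, adjusted p = 0.00587). Its exons overlap those of Tmco6 on the other strand, and whether the counting told reads of the pair apart is not given. The remaining accessory subunits that were lower were Ndufa1 at -0.48, Ndufa5 at -0.44, Ndufa3 at -0.38, Ndufs4 at -0.36 and Ndufv3 at -0.28. The exons of Ndufa3 overlap those of Tfpt on the other strand. Ndufs4 is known for the Leigh-like disease that follows its loss. The 2 assembly factors were Ndufaf2 at -0.39 (SE 0.09, adjusted p = 0.00473) and Ndufaf4 at -0.35 (SE 0.08, adjusted p = 0.0053). Exons of Ndufaf2 also overlap a gene on the other strand, B230220B15Rik. The core subunits, which hold the flavin and the iron-sulfur clusters, included Ndufv2 at -0.35 (adjusted p = 0.0801), Ndufs1 at -0.21 and Ndufv1 at -0.11, and all 7 lay below 0 without passing.

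In complex II, which also works in the citric acid cycle, 2 of 4 members were lower with E4. Sdhb, the iron-sulfur subunit, had 168, 236 and 358 CPM in OVX and 160, 188 and 205 CPM in E4, a log2 fold change of -0.41 (SE 0.14, adjusted p = 0.0415). Sdhd, a membrane anchor, had 223, 322 and 477 CPM in OVX and 225, 260 and 277 CPM in E4, a log2 fold change of -0.40 (SE 0.14, adjusted p = 0.0468). In both genes the ranges overlapped, with the highest OVX value in C5. Without OVX C5 the log2 fold change was -0.26 for Sdhb (adjusted p = 0.16) and -0.26 for Sdhd (adjusted p = 0.168), and without OVX C3 neither passed (adjusted p = 0.0946 and 0.114). Sdhb was called in 19 of 42 alternative fits and Sdhd in 10. Sdha, the flavoprotein, was at 0.03 (SE 0.15), and Sdhc, the other anchor, at -0.11 (SE 0.12).

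In complex III, 2 of the 5 accessory subunits and 0 of the 3 core or catalytic subunits were lower with E4. Uqcr10 had 110, 126 and 208 CPM in OVX and 78.3, 107 and 115 CPM in E4, and fell by 0.51 on the log2 scale (SE 0.15, adjusted p = 0.0227). Uqcrh, the hinge protein at the cytochrome c side, fell by 0.45 (SE 0.14, adjusted p = 0.0247). Its 6 E4 values ran from 46.6 to 66.2 CPM, with the highest, in E4 C16, inside the OVX range of 56.7 to 96.2 CPM. The core protein Uqcrc2 was at -0.38 (adjusted p = 0.0602), the Rieske protein Uqcrfs1 at -0.17 and the core protein Uqcrc1 at 0.13, none of which passed.

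In complex IV, 4 of the 18 tested members were lower with E4, and both members farthest from 0 were tissue-specific isoforms. Cox8b had 149, 215 and 408 CPM (lowest, median, highest) in OVX, 146, 219 and 317 in E2, 101, 140 and 192 in E4 and 121, 145 and 194 in TAM. With E4 it fell by 0.86 on the log2 scale against OVX (SE 0.23, adjusted p = 0.0105), the largest decrease of any member in that comparison. Cox7a1, the form of Cox7a found in heart, skeletal muscle and brown fat, had 33.9, 57.5 and 102 CPM in OVX and 28.7, 36.6 and 45 CPM in E4. It fell by 0.81 (SE 0.22, adjusted p = 0.013). For both genes the highest of all 24 libraries was OVX C5, the lowest was E4 C38, and the OVX and E4 ranges overlapped. The broadly expressed Cox7a2 fell by 0.39 (SE 0.12, adjusted p = 0.0202) without overlap, and Cox7c, a small structural subunit, fell by 0.39 (SE 0.14, adjusted p = 0.0466). Cox8a, the broadly expressed partner of Cox8b, lay on the other side of 0. It had 106, 143 and 256 CPM in OVX and 153, 227 and 249 CPM in E4, a log2 fold change of 0.45 (SE 0.17) that just missed the threshold (adjusted p = 0.0538). Cox4i1 was at -0.20, Cox5a at 0.18 and Cox6a1 at 0.23, none past the threshold, and Cox7a2l, which helps complexes III and IV join, was at -0.18 (adjusted p = 0.068).

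The share of the tissue-specific form within each pair followed from these levels. Computed per length, Cox8b made up a median of 73.0% of Cox8b and Cox8a together in OVX (lowest 65.8%, highest 79.4%), 71.4% in E2 (61.9% to 79.0%), 53.4% in E4 (41.9% to 68.3%) and 59.2% in TAM (55.4% to 68.5%). The ranges of the 4 groups overlapped. In OVX C5, the library with the highest level of both genes, the share was 73.2%, close to the OVX median. Cox7a1 made up a median of 57.0% of Cox7a1 and Cox7a2 in OVX, 52.2% in E2, 50.4% in E4 and 51.7% in TAM, and the ranges of the 4 groups overlapped. Cox4i2 stayed at or under 1.96% of its pair, Cox6b2 at or under 3.01% and Cox6a2 at or under 0.883% in all 24 libraries. Ndufa4l2, a paralogue of the complex IV subunit Ndufa4 that is known to be induced by hypoxia, had median shares of 11.8% in OVX (7.22% to 19.1%), 10.1% in E2 (7.79% to 15.1%), 16.3% in E4 (10.9% to 19.7%) and 16.9% in TAM (13.9% to 19.2%), with overlapping ranges. The shares are ratios within a library, so a difference shows unequal change of the pair and not which gene moved.

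**Figure D3:**
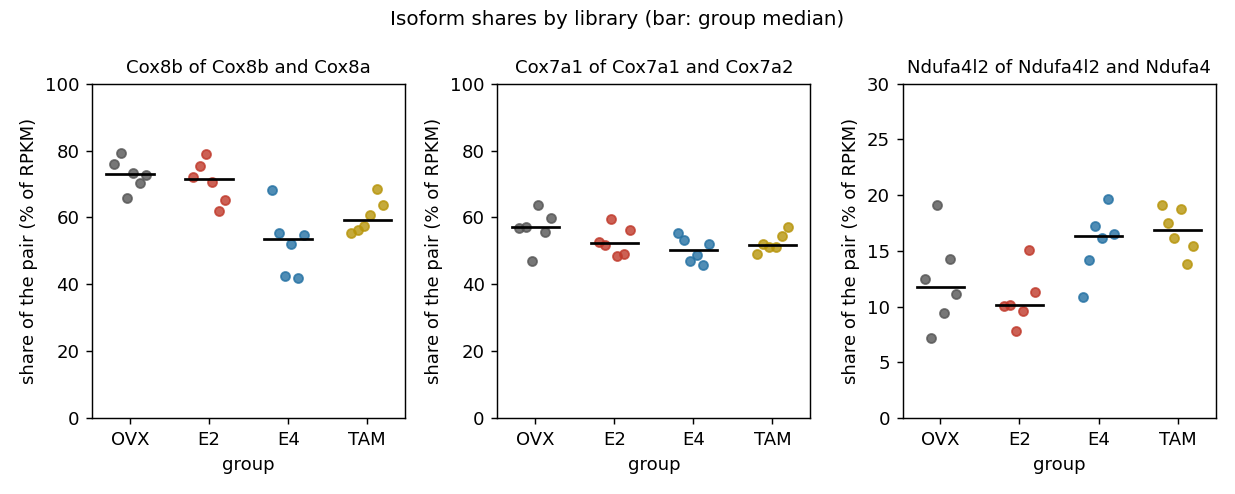
Share of the tissue-specific isoform in the length-scaled level (RPKM) of its pair, in percent, for each of the 24 libraries by group (points), with a bar at each group's median. The third panel has its own scale. The Cox8b share was 73.0% in OVX and 53.4% in E4 at the median, and the ranges of the OVX and E4 libraries overlapped for each of the 3 pairs.

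In complex V, 5 of 18 members were lower with E4 and 1 was higher. Of the 4 small membrane-part subunits, 3 were lower. Atp5j2, the f subunit, had 24.9, 27.8 and 48.6 CPM in OVX and 18.0, 20.6 and 27.4 CPM in E4, and fell by 0.64 on the log2 scale (SE 0.17, adjusted p = 0.00988). Atp5l, the g subunit, fell by 0.45 (SE 0.16, adjusted p = 0.0474), with exons that overlap Gm30934 on the other strand. Atp5mpl, the small proteolipid of the synthase, had 64.0, 68.1 and 97.4 CPM in OVX and 53.6, 56.6 and 61.3 CPM in E4. It fell by 0.40 (SE 0.09, adjusted p = 0.0034), with every E4 library below every OVX library. Of the catalytic head, Atp5e, the epsilon subunit, fell by 0.49 (SE 0.13, adjusted p = 0.0123), while Atp5a1 and Atp5b, the alpha and beta subunits that form the catalytic ring, were at 0.00073 (SE 0.12) and 0.14 (SE 0.13). Of the peripheral stalk, Atp5h, the d subunit, fell by 0.42 (SE 0.12, adjusted p = 0.0193). Atp5g3, a gene for the proton-carrying c ring, had 126, 130 and 147 CPM in OVX and 142, 150 and 184 CPM in E4. It rose by 0.24 (SE 0.08, adjusted p = 0.0371), and the 2 ranges overlapped only between 142 and 147 CPM. The other c ring genes were at -0.24 (Atp5g2) and 0.40 (Atp5g1, adjusted p = 0.211). Atp5o is listed under 2 Ensembl identifiers, and its counts are uncertain for that reason.

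**Figure D4:**
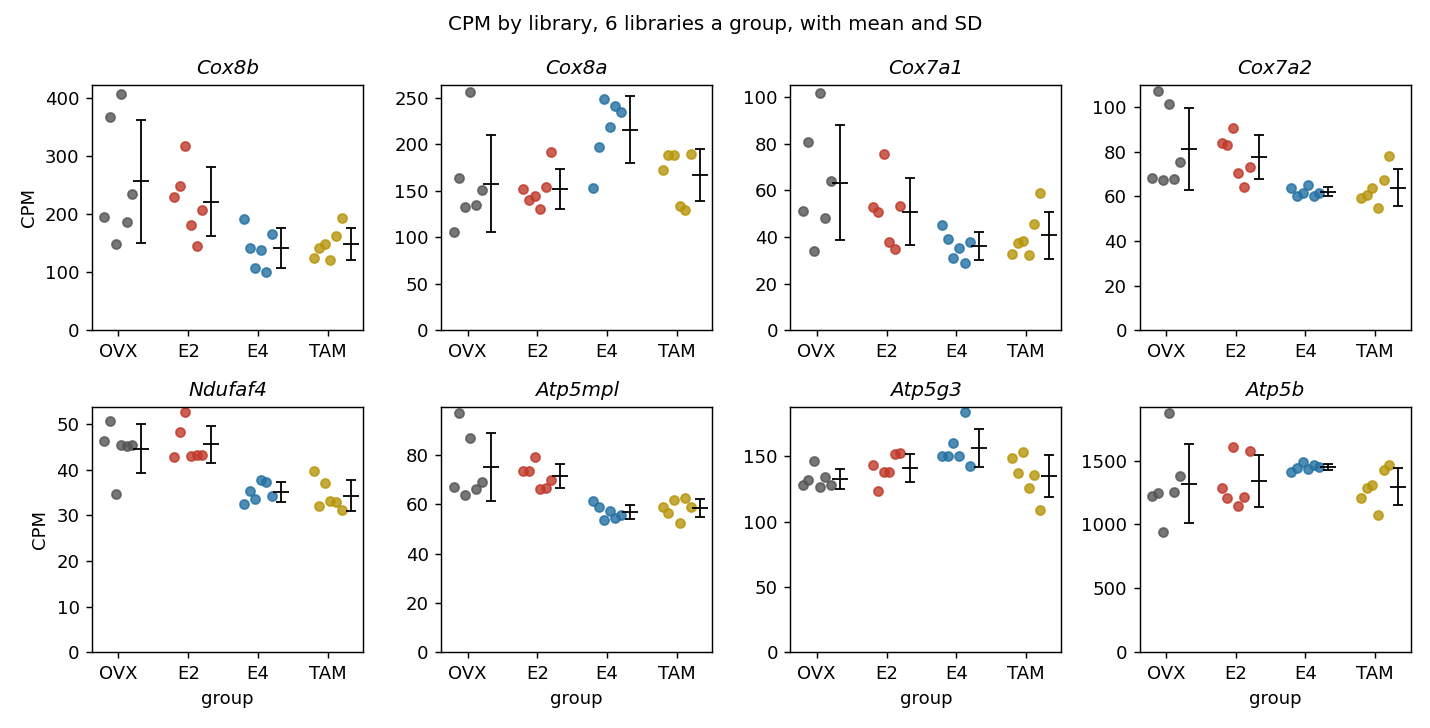
CPM of 8 members in each of the 24 libraries by group (points), with the group mean and an error bar of 1 SD over 6 libraries beside the points. Cox8b and Cox7a1 had their lowest group medians with E4 and their highest single values in OVX C5, and Cox8a had its highest group median with E4.

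The number of E4 calls was smaller without either of 2 OVX libraries. Without OVX C5, 10 members were lower and 2 higher (Cox6a1 and Cox8a), with 7.93% of all genes lower, and the members' median was -0.13. Without OVX C3, 10 members were lower and 0 higher, with 7.27% of all genes lower, and the median was -0.17. The same 10 members were lower in both fits (Atp5e, Atp5j2, Atp5mpl, Cox7a1, Cox8b, Ndufa2, Ndufa5, Ndufaf2, Ndufaf4 and Ndufb11). Without both libraries, Atp5mpl alone was lower, Cox6a1 and Cox8a were higher, 3.12% of all genes were lower, and the median was -0.04. The log2 fold change of Cox8b was then -0.43 (adjusted p = 0.191), that of Cox7a1 -0.44 (adjusted p = 0.199), that of Atp5j2 -0.30 (adjusted p = 0.181), that of Ndufb4 -0.22 (adjusted p = 0.317), that of Ndufb11 -0.22 (adjusted p = 0.206) and that of Uqcr10 -0.21 (adjusted p = 0.357). That of Cox8a was 0.73 (adjusted p = 0.00651) and that of Atp5g3 was 0.23 (adjusted p = 0.122). Atp5g3 also missed the threshold without OVX C3 alone (adjusted p = 0.0684) or OVX C5 alone (adjusted p = 0.0575). Without OVX C4, the control library in which 13 members had their lowest value, 33 members were lower and 1 higher, with 11.3% of all genes lower. Within the first run of animal numbers (C2 to C20), 8 members were lower, near the share of all genes (7.46%), and the median was -0.27. Within the second run (C24 to C39), with 2 OVX and 3 E4 libraries, 0 passed and the median was -0.12. In that second run 5 of all genes passed. With the run of animal numbers as a covariate over all 24 libraries, 18 members were lower and 1 higher. In that fit 11.9% of all genes were lower, and the members' median was -0.22.

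Some markers of brown adipocytes moved with the members. Ucp1, the uncoupling protein that defines brown fat, ran from 368 to 955 CPM in OVX, 229 to 733 in E2, 194 to 339 in E4 and 223 to 424 in TAM. Its highest values were in OVX C5 (955), E2 C9 (733) and OVX C3 (698), the 3 libraries that held the highest value of the most members. With E4 against OVX it fell by 1.09 on the log2 scale (SE 0.25, adjusted p = 0.00515) with no overlap. Of the 5 brown adipocyte markers tested, 3 fell with E4, the others being Cidea at -0.91 (SE 0.21) and Elovl3 at -1.16 (SE 0.39), while Otop1 at 0.35 (SE 0.21) and Dio2 at 0.30 (SE 0.28) did not pass. With E2 against OVX, Dio2 rose by 1.43 (SE 0.29) and Cidea fell by 0.82 (SE 0.21). The summed level of the list ran from 786 to 2007 CPM in OVX, 678 to 1586 in E2, 528 to 884 in E4 and 674 to 1058 in TAM. A list was used as a covariate, here and below, through the mean log2 CPM of its genes and not through their sum. With the brown adipocyte list as a covariate, 4 members were lower with E4 (Atp5mpl, Ndufa2, Ndufaf2 and Ndufaf4) and 5 were higher. In that fit 4.18% of all genes were lower and 8.96% were called in either direction, and the members' median was -0.0038. With Ucp1 as the covariate, 0 were lower and 8 higher, with 1.36% of all genes lower and 3.6% called in either direction, and the median was 0.12. Since the covariate itself differed between the groups, these fits also take out any part of the treatment difference that moved with it. Cox8b and Cox7a1 are themselves known to be high in brown fat.

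**Figure D5:**
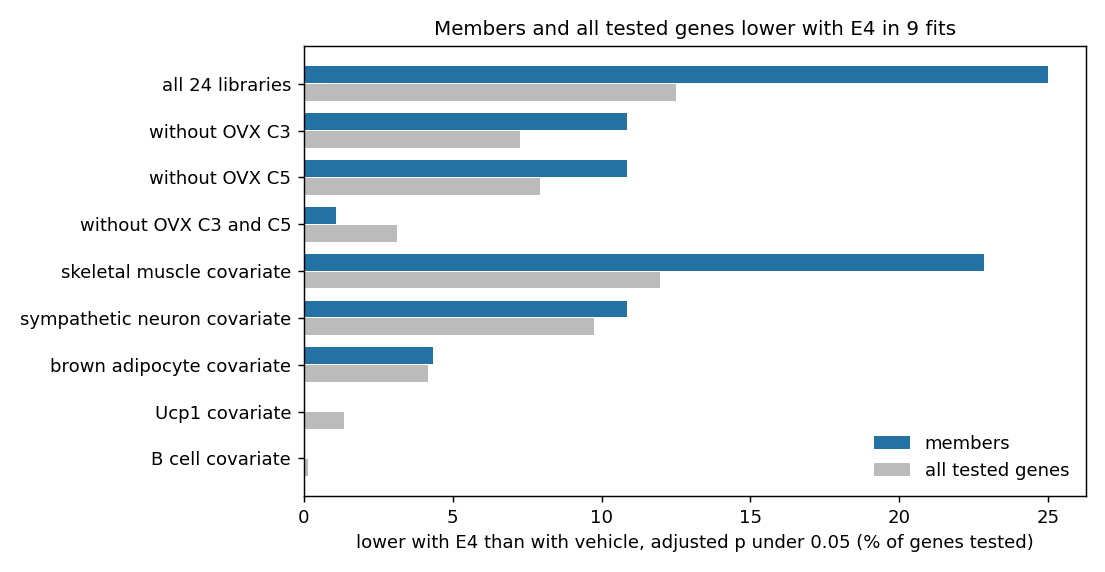
Percent of the members and of all tested genes that were lower with E4 against OVX (adjusted p under 0.05), in the fit of all 24 libraries and in 8 fits that leave out OVX C3, OVX C5 or both or add a marker covariate. The members' share fell from 25% to 10.9% without either library and to 1.09% without both, and that of all genes from 12.5% to 7.27%, 7.93% and 3.12%.

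Other marker lists moved with E4 as well. All 6 B cell markers were lower against OVX, with summed levels of 5.33 to 35.4 CPM in OVX and 3.16 to 7.20 CPM in E4, and 4 of the 6 fibroblast markers were lower. Of the 6 white adipocyte markers, Lep (-1.33) and Retn (-1.09) were lower without overlap and Cfd was higher (0.68). None of the 6 T cell markers passed, although all 6 lay below 0. Of the 9 sympathetic neuron markers, 0 passed and all 9 lay above 0, with sums of 35 to 3703 CPM in OVX and 2953 to 5083 CPM in E4. With the sympathetic neuron list as a covariate 10 members were lower and 5 higher, with 9.75% of all genes lower and a members' median of -0.08. With the skeletal muscle list as a covariate 21 were lower and 1 higher, with 12% of all genes lower. Without the 6 libraries with skeletal muscle transcripts, 18 of the 91 members tested were lower and 0 higher, with 10.7% of all genes lower. With the B cell list as a covariate 0 members passed, 0.132% of all genes were lower and the members' median was -0.0477, and the part of these other cell types in the result was not tested beyond these fits.

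Tamoxifen gave the same size of median difference with few calls. Against OVX, 2 of 92 members were lower (2.17%, against 0.919% of all genes) and 0 were higher (against 1.29%). The members' median log2 fold change was -0.25, against -0.0033 for all genes, and 85 of 92 lay below 0 (92.4%, against 50.6%). At an unadjusted p under 0.05 there were 39 members, all lower (42.4%, against 11.2% of all genes lower). Ndufaf4 had 34.6, 45.5 and 50.7 CPM in OVX and 31.1, 33 and 39.8 CPM in TAM, and fell by 0.38 on the log2 scale (SE 0.08, adjusted p = 0.0215). The groups overlapped only through OVX C4, at 34.6 CPM, where the other OVX libraries were at 45.3 CPM or more. Atp5mpl had 52.4, 58.9 and 62.8 CPM in TAM and fell by 0.36 (SE 0.09, adjusted p = 0.035), with every TAM library below every OVX library. Cox8b was at -0.79 (SE 0.23, adjusted p = 0.0596), Atp5j2 at -0.56 (SE 0.16, adjusted p = 0.0653) and Cox7a1 at -0.63 (SE 0.22, adjusted p = 0.106), none past the threshold. Ucp1 was at -0.80 (SE 0.25, adjusted p = 0.0779) in the same comparison. Both calls were lost when some single libraries were left out. Atp5mpl missed the threshold without any one of OVX C3, OVX C5, TAM C11, TAM C12, TAM C13, TAM C32 or TAM C33, and Ndufaf4 without OVX C3 or TAM C33. Over all 42 alternative fits Atp5mpl was called in 26 and Ndufaf4 in 32. So 0 members passed without OVX C3 (0.289% of all genes called) or without TAM C33 (0.447%). With OVX C3 and OVX C5 both left out 0 members passed (0.228%) and the median was -0.06. The median also varied between other fits. It was -0.06 with the brown adipocyte list as a covariate, 0.02 with Ucp1 and -0.11 with the B cell list, and -0.38 within the first run of animal numbers and -0.06 within the second. In these 5 fits 0 members were called, and at most 0.571% of all genes were. All 6 B cell markers lay below 0 with TAM (median -1.51), 2 of them past the threshold. Without overlap, 1 of 8 smooth muscle (median 0.33), 1 of 7 endothelial (median 0.12) and 1 of 6 fibroblast markers (median -0.17) were higher. Of 6 white adipocyte markers 1 was lower, with overlap. All 9 sympathetic neuron markers lay above 0 (median 0.57), 0 of them past the threshold. The part of the smooth muscle, endothelial, fibroblast and white adipocyte markers in the members' difference was not tested. Without the 6 libraries with skeletal muscle transcripts, 10 members were lower, with 2.42% of all genes lower. E4 and TAM share the OVX libraries, so their values for Cox8b (-0.86 and -0.79), Ndufaf4 (-0.35 and -0.38) and Atp5mpl (-0.40 and -0.36) are not independent of each other.

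The treatments were also compared directly, which leaves the OVX libraries out of the difference though not out of the shared estimate of spread. With E4 against E2, 11 of 92 members were lower (12%, against 8.97% of all genes) and 1 was higher (1.09%, against 3.55%), with a median log2 fold change of -0.22 and 78 of 92 below 0 (84.8%, against 51.7%). Cox8a was the member that was higher, with 130, 148 and 192 CPM in E2 and 153, 227 and 249 CPM in E4, a log2 fold change of 0.50 (SE 0.17, adjusted p = 0.0498). It lost the call in 28 of 42 alternative fits, among them the fit with the run of animal numbers as a covariate. Of the 11 that were lower, 7 were in complex I (Ndufa2, Ndufa3, Ndufb3, Ndufb7, Ndufaf1, Ndufaf2 and Ndufaf4), 1 in complex III (Uqcrh) and 3 in complex V (Atp5e, Atp5k and Atp5mpl). Atp5k, the e subunit, fell by 0.45 (SE 0.13, adjusted p = 0.0243) at levels of 1.83 to 3.53 CPM over both groups. Uqcrh fell by 0.44 (SE 0.14, adjusted p = 0.0376) and Ndufa2 by 0.44 (SE 0.11, adjusted p = 0.0142). Ndufb3, an accessory subunit, had 35.8, 41.7 and 56.6 CPM in E2 and 28.6, 33.4 and 35.6 CPM in E4, and fell by 0.42 (SE 0.12, adjusted p = 0.0208) with no overlap. Groups did not overlap for 9 members, all lower (9.78%, against 4.13% of all genes). Without the 6 libraries with skeletal muscle transcripts, 3 of which were E2 libraries, 0 members passed and the median was -0.08, with 2.91% of all genes lower. With the brown adipocyte list as a covariate, 0 members were lower and 2 higher, the median was 0.0406, and 1.91% of all genes were lower, and 1 of the 5 brown adipocyte markers was itself lower in this comparison. Other markers moved in this comparison too. All 6 macrophage markers were lower without overlap (median -1.08, sums of 480 to 661 CPM in E2 and 199 to 381 CPM in E4), as were all 6 T cell markers, with overlap, and 4 of 6 fibroblast markers. T cell markers summed to 308 CPM in E2 C9 and to 3.67 to 23.9 CPM in the other E2 libraries. Against OVX all 6 macrophage markers were higher with E2 (median 0.88), and 1 was lower with E4 (median -0.16). Of the 6 white adipocyte markers 1 was lower with E4 than with E2, without overlap. Of the 12 skeletal muscle markers 11 lay below 0 with E4 against E2 (median -1.86), 0 of them past the threshold. The part of the macrophage, T cell, fibroblast and white adipocyte markers in the members' difference was not tested. The number of members called was 5 without E2 C9 (7.12% of all genes called) and 5 without E2 C8 (5.68%), but 20 without OVX C5 (15.4%), 31 without OVX C3 and OVX C5 (17.6%) and 33 with only E2 and E4 libraries in the fit (22.5%), against 12 with all libraries (12.5%). The median of -0.22 was -0.10 within the second run of animal numbers, -0.12 with the B cell list as a covariate and -0.14 with the sympathetic neuron list. Of 81 cytosolic ribosomal protein genes 16 were lower (median -0.28).

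With TAM against E2, 4 members were lower (4.35%, against 4.51% of all genes) and 1 was higher (1.09%, against 1.93%), with a median of -0.22 and 86 of 92 below 0 (93.5%, against 49.5%). Ndufb3 fell by 0.51 on the log2 scale (SE 0.12, adjusted p = 0.00918), with 25.9, 31.0 and 35.1 CPM in TAM. The others that fell were the assembly factors Ndufaf4, by 0.41 (SE 0.08, adjusted p = 0.00245), and Ndufaf1, by 0.35 (SE 0.08, adjusted p = 0.0109), and the synthase subunit Atp5mpl, by 0.29 (SE 0.09, adjusted p = 0.0467). Ndufa4l2 was the member that was higher. It had 5.97, 7.33 and 8.26 CPM in E2 and 8.73, 9.87 and 12 CPM in TAM, with every TAM library above every E2 library, and it rose by 0.53 (SE 0.11, adjusted p = 0.00544). For 7 members all TAM libraries lay below all E2 libraries (7.61%, against 3.13% of all genes). The exons of Ndufa4l2 overlap those of Shmt2 on the other strand, and whether the counting told reads of the pair apart is not given. Without the libraries with skeletal muscle transcripts 0 members passed, with 2.31% of all genes lower. With the brown adipocyte list as a covariate 1 member was lower, the median was 0.026 and 1.92% of all genes were lower. Against OVX 0 of the 6 macrophage markers passed with TAM (median -0.11). Against E2, which raised them, all 6 were lower with TAM without overlap (median -0.99, 272 to 319 CPM in sum). Of the white adipocyte markers 2 of 6 were lower without overlap (Lep at -2.02 and Cfd at -1.19), 1 of 5 brown adipocyte markers was lower, 2 of 8 smooth muscle markers were higher and all 8 lay above 0 (median 0.44). The 6 T cell markers lay below 0 (median -2.06), none past the threshold. The part of the macrophage, white adipocyte, smooth muscle and T cell markers in the members' difference was not tested. TAM and E4 did not differ in any member past the threshold, where 0.34% of all genes did, and 4 members passed an unadjusted p of 0.05 (4.35%, against 9.12%). Their median was -0.0006 with 46 of 92 below 0 (50%, against 50.8%), and DESeq2 called 0 (0.816% of all genes). The estimates ran from -0.37 for Cox8a (SE 0.17) to 0.38 for Cox4i2 (SE 0.17).

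Other genes of the pathway were read from lists of known function. Their counts with E4 against OVX stand against the 12.5% of all genes that were lower and the 9.52% that were higher. Of 38 assembly factors outside the naming rule, 4 were lower and 2 higher. The copper chaperone Cox17 fell by 0.56 on the log2 scale (SE 0.14, adjusted p = 0.00853), with Cox16, Cox20 and Sdhaf4 at -0.35, -0.33 and -0.30, while Pet117 and Sco2 rose by 0.37 and 0.35. Of 12 regulators of mitochondrial biogenesis, 6 lay below 0 and 6 above, with a median of -0.04, and 2 passed. Tfam, which packages and transcribes mitochondrial DNA, fell by 0.34 (SE 0.08, adjusted p = 0.00612), and Gabpa, the DNA-binding subunit of GABP, by 0.26 (SE 0.09, adjusted p = 0.0412). Of 78 mitochondrial ribosomal protein genes 19 were lower and 3 higher with a median of -0.11, and of 81 cytosolic ribosomal protein genes 10 were lower and 0 higher with a median of -0.22. The cytosolic ribosome list, which has no part in respiration, thus had a median near that of the members, at -0.24.

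Fuel pathway lists had medians on both sides of 0 with E4 against OVX. Of 17 citric acid cycle genes, with a median of -0.15 and 13 below 0, Sucla2 (-0.48), Suclg1 (-0.48) and Idh2 (-0.45) were lower. Of 14 beta oxidation genes, with a median of -0.26 and 12 below 0, Cpt1a, the liver-type carnitine palmitoyltransferase, rose by 0.82 (SE 0.20, adjusted p = 0.00697), and Cpt1b, the form of muscle and brown fat, fell by 0.63 (SE 0.22, adjusted p = 0.0411). Of the 17 rows of glycolysis genes, with a median of 0.16 and 14 above 0, Hk1, hexokinase, rose by 1.16 (SE 0.31, adjusted p = 0.0127) and Gpi1 by 0.37 (SE 0.12, adjusted p = 0.0305). Of 10 electron carriers and exchangers, with a median of -0.10 and 6 below 0, the phosphate carrier Slc25a3 rose by 0.21 and the outer membrane channel Vdac1 by 0.39. With E2 against OVX, Sdhaf2, which inserts the flavin of complex II, rose by 0.20, Slc25a3 rose by 0.25 and Idh2 fell by 0.59, all with adjusted p under 0.05. In that comparison 2 of 78 mitochondrial and 1 of 81 cytosolic ribosomal protein genes were higher, where 2.88% of all genes were. With TAM against OVX, 3 of 78 mitochondrial and 1 of 81 cytosolic ribosomal protein genes were lower, where 0.919% of all genes were, and no gene of the other pathway lists passed. The adenine nucleotide exchanger Slc25a5 was lower with E4 and with TAM against E2, at -0.34 (SE 0.08, adjusted p = 0.0132) and -0.40 (SE 0.08, adjusted p = 0.00422).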

How the data were processed

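RNA of mouse carotid arteries was sequenced as 24 stranded, paired mRNA libraries, 1 library per animal number. Per the labels, reads were demultiplexed with bcl2fastq 2.17, trimmed with Trim Galore, aligned with Bowtie2 to mm10 (GRCm38) and counted per gene with featureCounts. Strand, multi-mapping and overlap settings are not given in the sources used here. The values as deposited are estimated counts, since 8.87% to 9.8% of rows a library were not whole, and rounding to integers came before any test. The study's own analysis of E4 used fewer libraries a group, and which ones were left out is not given in the sources used here.

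Groups came from the titles. Genes were filtered with filterByExpr (25033 kept), scaled by TMM and tested with edgeR 4.0.16 (R 4.3.3) by the quasi-likelihood test, with all 24 libraries in 1 fit with a term for group, and Benjamini-Hochberg adjustment over all tested genes. A call was an adjusted p under 0.05. An SE here is the absolute log2 fold change divided by the square root of that test's F statistic, and not an error given by the fit. CPM and RPKM used TMM-scaled totals, and RPKM the summed exon length in GENCODE M21. On simulated counts the scripts recovered the direction of the changes put in at the median. Those changes were larger than the changes of most members here, and smaller ones were not simulated. Library pairs of a group differed by at least 12.8 in chi-square per degree of freedom, so no pair looked like a repeat of the same library. The labels number the animals and say nothing of litters or preparation days, so p-values measure only the spread between these libraries.

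The members and lists were chosen with earlier results of these data known. The text names the 6 members with the largest called change in each direction and comparison with a mean of at least 1 CPM, a fixed set of core members, isoform pairs and the highest member of each complex. Other members were named after their values were seen, among them the remaining calls and Cox4i2. Alternatives were DESeq2 1.42.0, other scaling and filtering, smaller groups of libraries, marker covariates and the run of animal numbers as a covariate. Promoter windows came from RefSeq (GRCm38.p6). Values of 1 member are not reported here.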

Additional observations from a re-analysis of the deposited data

Results flagged for a closer look

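Of 164 sets of 6 libraries of a group (38 named members, the members' summed and median levels and Ucp1, in each group), 7 had a highest or lowest library whose gap to the nearest other library, divided by the group's range, was above Dixon's critical value for 6 samples, which chance passes in about 1 of 20 sets. Cox6a2, the muscle form of a complex IV subunit, was highest in OVX C2 at 0.863 CPM, in E4 C20 at 0.586 CPM and in TAM C35 at 0.58 CPM, each of which was a library with skeletal muscle markers over 150 CPM in sum. Ndufa4 was highest among E4 libraries in C16 at 93.0 CPM (nearest 60.5). Uqcrh was highest among E4 libraries in C16 at 66.2 CPM (nearest 53.8). Ndufaf1 was lowest among TAM libraries in C32 at 24.3 CPM (nearest 28.1). Ndufaf4 was lowest among OVX libraries in C4 at 34.6 CPM (nearest 45.3).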

How the results depend on the processing

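No paired analysis was possible because the groups share no animal number. Of the 25 calls of named members, Cox8b with E4 against OVX held in 36 of 42 alternatives (log2 fold change -0.98 to -0.01), Ndufaf4 with TAM against E2 in 40 and Ndufa4l2 with TAM against E2 in 38. The least stable were Sdhd with E4 against OVX (10 of 42), Atp5mpl with TAM against E2 (13), Cox8a, Atp5e and Ndufa3 with E4 against E2 (14 each) and Sdhb with E4 against OVX (19). The 23 members lower with E4 stayed below 0 in every alternative that tested them except with Ucp1 as a covariate, where 14 did. There, Cox7a1 was at 0.0396, Uqcr10 at 0.0149, Sdhb at 0.0853 and Sdhd at 0.103, and the cause was not tested. Leaving out 1 library at a time gave these ranges of members called and of their median log2 fold change. For E4 against OVX they were 10 (without OVX C3, with 13% of all genes called) to 34 (without OVX C4, 20.5%) and -0.29 to -0.13, for TAM against OVX 0 (without OVX C3, 0.289%) to 7 (without OVX C4, 2.77%) and -0.31 to -0.14, and for E2 against OVX 0 to 1 and -0.08 to 0.06, above 0 without OVX C3, OVX C5 or E2 C27. For E4 against E2 they were 5 to 20 (5.68% without E2 C8 and 15.4% without OVX C5) and -0.29 to -0.18, for TAM against E2 4 (6.01% without OVX C25) to 10 (7.4% without OVX C5) and -0.26 to -0.17, and for TAM against E4 0 to 0 (0.245% to 0.452%) and -0.05 to 0.03.

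The following counts of called members moved by over 1.5 times, and each percent in parentheses is the share of all genes called in that fit. DESeq2 called 1 for E2 against OVX (6.2%), 6 for TAM against OVX (6.94%) and 8 for TAM against E2 (9.39%). An added minimum of 1 for the absolute log2 fold change left 0 for E4 against OVX (2.51%), 0 for TAM against OVX (0.308%), 0 for E4 against E2 (2.47%) and 0 for TAM against E2 (1.65%). Upper-quartile factors gave 1 for E2 against OVX (3.25%) and 7 for E4 against E2 (11.6%), and no filter gave 1 for TAM against OVX (0.497%) and 6 for E4 against E2 (5.16%). With only the 2 groups compared in the fit there were 13 for E4 against OVX (18.4%), 0 for TAM against OVX (0.162%) and 33 for E4 against E2 (22.5%). The first run of animal numbers alone gave 8 for E4 against OVX (12.1%), 0 for TAM against OVX (0.00394%), 6 for E4 against E2 (12.6%) and 1 for TAM against E2 (4.58%, median -0.40), and the second run 0, 0, 0 and 1 (0.0196%, 0%, 0% and 0.451%, median -0.0376 in the last), with fewer libraries in each. Without OVX C5 and TAM C35 there were 1 for E2 against OVX (6.62%), 0 for TAM against OVX (1.03%), 31 for E4 against E2 (25.7%) and 24 for TAM against E2 (13.2%). Without E4 C38 there were 1 for E2 against OVX (4.19%) and 7 for E4 against E2 (9.95%). The skeletal muscle covariate gave 7 for E4 against E2 (9.96%). The brown adipocyte covariate gave 1 for E2 against OVX (5.53%), 9 for E4 against OVX (8.96%, median -0.0038), 0 for TAM against OVX (0.571%), 2 for E4 against E2 (2.63%, median 0.0406) and 1 for TAM against E2 (3.25%, median 0.026). The sympathetic neuron covariate gave 2 for E2 against OVX (8.54%), 15 for E4 against OVX (18.5%), 5 for TAM against OVX (5.66%), 19 for E4 against E2 (16.9%) and 25 for TAM against E2 (13.4%). The B cell covariate gave 0 for E4 against OVX (0.407%), 0 for TAM against OVX (0.0599%) and 1 for E4 against E2 (2.89%).

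The last 4 alternatives were chosen after seeing the data. Without OVX C3 and OVX C5 there were 2 for E2 against OVX (3.92%), 3 for E4 against OVX (7.52%), 0 for TAM against OVX (0.228%), 31 for E4 against E2 (17.6%) and 14 for TAM against E2 (8.88%). Without the 6 libraries with skeletal muscle transcripts there were 10 for TAM against OVX (5.12%), 0 for E4 against E2 (4.08%, median -0.0797) and 0 for TAM against E2 (2.99%). With Ucp1 as a covariate there were 6 for E2 against OVX (5.66%), 8 for E4 against OVX (3.6%, median 0.12), 0 for TAM against OVX (0.395%, median 0.022) and 4 for E4 against E2 (3.91%, median -0.0196). The causes of these moves were not tested. Among the 49 members without decimals or overlapping exons there were 5 for E4 against E2 and 3 for TAM against E2, in the same fit of all genes with fewer members counted. With 6 libraries a group and SEs of 0.07 to 0.23 for every tested member but Cox6a2 in E4 against OVX, a member that did not pass is not shown to be unchanged.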
